A study of Homo sapiens with 6 samples.

Results

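The tetraspanins were examined as a gene family in K562 cells, a human leukemia cell line with erythroid and megakaryocytic features that came from a chronic myeloid leukemia. Members were all probe sets of the array whose only annotated gene symbol was TSPAN followed by a number, or was CD9, CD37, CD53, CD63, CD81, CD82, CD151, UPK1A, UPK1B, PRPH2 or ROM1. This rule found 32 genes with 60 probe sets, out of 19775 genes and 54613 probe sets in all, and used no measured value. TSPAN19 was represented by 0 probe sets. Of the 32 genes, 13 had 1 probe set and 19 had several.

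Used were 3 stable clones of this line (CL4, CL9, CL46), in which a tet-on construct (pTRE-ERG, ERG3 in the culture labels) switches on ERG, an ETS family transcription factor, when doxycycline (DOX) is added. By the labels, the ERG-induced group held 1 array of each clone after 8 days of daily DOX at 1 µg/ml. The non-induced group held 1 array of each clone without DOX, which makes 6 Affymetrix U133 Plus 2.0 arrays. The methods of the study also give 8 days, but a figure legend gives 6 days for these clones. Both groups carry the construct, each line is 1 clone, and ERG is forced from it in cells of 1 line. DOX went to all induced cultures and to none of the others, so effects of DOX and of ERG cannot be told apart. The arrays are therefore called by their labels, ERG-induced and non-induced.

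Tetraspanins are small membrane proteins with several membrane-spanning helices and a large extracellular loop, through which they gather integrins, proteases and other receptors into membrane microdomains. Most are palmitoylated near the membrane, and several, CD63, CD81 and CD9 among them, are abundant on late endosomes, secretory granules or extracellular vesicles. In blood cells they are known for setting integrin adhesion, receptor signalling and platelet function. TSPAN5, TSPAN10, TSPAN14, TSPAN15, TSPAN17 and TSPAN33 form the TspanC8 subgroup, which carries the sheddase ADAM10 to the cell surface.

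Each deposited value was a ratio, whose median over the 6 arrays was 1 for 50737 probe sets and lower for 3938, among them 1 of a member. Values below are log2 of these ratios, and a difference is ERG-induced minus non-induced. For a probe set with a median of 1, 0 is thus the median of the 6 arrays. A gene's value was the mean over its probe sets, so its median over the arrays need not be 0. The ratios hold no brightness, so neither the level of 1 gene relative to another nor presence in K562 cells can be read from them. A gene or probe set is said to rise or fall, or to be called, where it differed at least 2-fold with a limma p under 0.05 before adjustment, after the thresholds stated for the study. At an adjusted p (Benjamini-Hochberg over all genes) under 0.05, limma called 0 of all 19775 genes, the lowest adjusted p being 0.101, while 2544 had an unadjusted p under 0.05. No tetraspanin passed that stricter threshold, their adjusted p lying between 0.252 and 0.983.

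Facts of all 6 arrays bear on what follows. ERG itself differed by -0.76 (SE 0.63, limma adjusted p = 0.671), with 0.15, -0.93 and -0.71 on the ERG-induced arrays of CL4, CL9 and CL46 and 1.503, -0.13 and -0.57 on their non-induced arrays. This is a mean of probe sets that disagreed, at -1.93, -1.35, -0.50 and 0.72, none of them called. Whether the ERG probe sets lie within the introduced ERG is not known here, so the ERG value checks no label. The median ratio of an array was 0.957, 0.898 and 0.998 in ERG-induced CL4, CL9 and CL46 and 1.008, 0.990 and 1.069 in the non-induced arrays. The 3 ribosomal RNA control probe sets averaged higher in ERG-induced cells by 1.21, 0.59 and 0.82 in the same clones. The part of these technical differences in the results was not tested.

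Among the 32 tetraspanin genes, CD82 rose 2.37-fold and TSPAN6 fell 7.66-fold in ERG-induced cells, and these were the only calls. These 2 calls are 6.25% of the members, against 9.44% of all genes called in either direction (3.12% higher and 6.32% lower). By probe set, 3 of 60 were called, or 5.00%, against 11.0% of all probe sets (2.82% higher and 8.16% lower): 1 of CD82 and 1 of UPK1B rose, and 1 of TSPAN6 fell. The share of calls in the family was thus not above that of the array. The median difference over the members was 0.24, against -0.03 over all genes. By clone, the median of the members was 0.11, 0.20 and 0.48 in CL4, CL9 and CL46, against -0.04, -0.06 and -0.04 for all genes.

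The promoter sequences of the genes with called probe sets are printed first, because ERG belongs to the ETS factors, whose binding sites share the core GGAA. Each is the stretch of 250 bases upstream of an annotated start (RefSeq, GRCh38.p14), 5′ to 3′ on the gene's strand, with GGAA and its reverse complement TTCC in capitals.

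CD82 chr11:44565413-44565662 (+ strand): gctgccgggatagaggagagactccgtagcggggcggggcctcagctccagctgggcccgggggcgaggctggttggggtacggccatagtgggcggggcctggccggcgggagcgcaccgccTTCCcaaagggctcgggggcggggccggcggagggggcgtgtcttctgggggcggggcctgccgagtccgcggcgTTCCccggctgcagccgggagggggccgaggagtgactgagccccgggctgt

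TSPAN6 chrX:100636807-100637056 (- strand): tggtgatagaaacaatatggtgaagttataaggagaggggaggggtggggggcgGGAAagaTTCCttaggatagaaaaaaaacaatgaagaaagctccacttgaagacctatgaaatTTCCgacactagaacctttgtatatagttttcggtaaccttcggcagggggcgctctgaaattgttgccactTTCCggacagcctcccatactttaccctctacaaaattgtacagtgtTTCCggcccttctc

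TSPAN6 chrX:100637105-100637354 (- strand): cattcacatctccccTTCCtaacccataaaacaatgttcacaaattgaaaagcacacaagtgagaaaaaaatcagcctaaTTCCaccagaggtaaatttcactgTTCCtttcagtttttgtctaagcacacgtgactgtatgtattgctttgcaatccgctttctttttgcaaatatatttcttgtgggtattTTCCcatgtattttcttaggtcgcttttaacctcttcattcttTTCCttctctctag

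UPK1B chr3:119173348-119173597 (+ strand): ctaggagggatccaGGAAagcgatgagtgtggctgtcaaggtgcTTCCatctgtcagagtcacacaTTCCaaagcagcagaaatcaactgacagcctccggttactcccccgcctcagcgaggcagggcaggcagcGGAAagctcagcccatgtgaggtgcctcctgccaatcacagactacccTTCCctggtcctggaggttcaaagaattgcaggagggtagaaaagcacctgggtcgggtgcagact

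The CD82 window held 2 such matches, both TSPAN6 windows 5 each and the UPK1B window 5. Short cores are common: GGAA or TTCC was found on either strand in 92.7% of 35116 windows of all genes, with 2.93 matches on average, and in 41 of the 44 windows of 24 tetraspanin genes, with 2.77. A longer ETS sequence, CCGGAAGT or its reverse complement, which contains the core, was found in 3.42% of all windows and in 0 of the 44. A GATA sequence, AGATAA or its reverse complement, was found in 9.17% of all windows and in 2 of the 44, those of PRPH2 and TSPAN12. No entry was found for CD37, CD81, CD151, TSPAN3, TSPAN7, TSPAN9, TSPAN18 and TSPAN32. A match of letters is a description of the sequence and shows no binding.

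**Figure D1:**
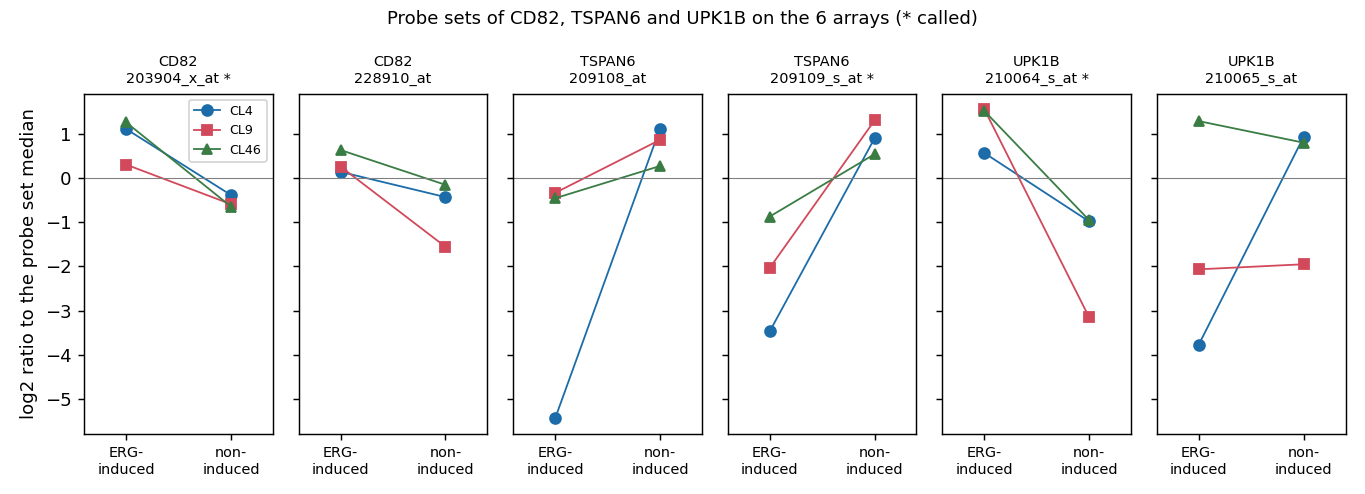
Values of the 6 probe sets of CD82, TSPAN6 and UPK1B as log2 ratio to the probe set's median (vertical axis), with the ERG-induced array left of the non-induced array and a line for each clone; an asterisk marks a call. All lines of 1 probe set of UPK1B run higher in ERG-induced cells (1.55 to 4.71), while the other probe set is far lower in CL4 alone.

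CD82 (KAI1), known as a suppressor of metastasis that restrains integrin-dependent migration, was the tetraspanin that rose. Its gene values were 0.62, 0.28 and 0.95 on the ERG-induced arrays of CL4, CL9 and CL46, against -0.41, -1.08 and -0.40 on their non-induced arrays. The groups did not overlap, and the gene differences of 1.03, 1.36 and 1.347 were close to each other. The fitted difference was 1.25 (SE 0.33, 95% interval 0.44 to 2.05, limma adjusted p = 0.252). Both of its probe sets lay higher in each clone, but neither differed by a like amount between clones. In CL4, CL9 and CL46 the first differed by 1.495, 0.897 and 1.906, and the second by 0.571, 1.814 and 0.787. CL9 was thus the smallest in the first and the largest in the second. The close gene differences of CD82 are means over these unlike probe sets. Its first probe set, with a name that ends in _x_at, had 1.11, 0.30 and 1.26 in ERG-induced cells and -0.39, -0.59 and -0.65 in non-induced cells, and rose by 1.43 (SE 0.35, limma adjusted p = 0.223). This call was lost without CL4 (1.40, limma adjusted p = 0.470) and without CL46 (1.20, limma adjusted p = 0.588). Its second had 0.14, 0.26 and 0.63 in ERG-induced cells and -0.43, -1.56 and -0.15 in non-induced cells, a difference of 1.06 (SE 0.45, limma adjusted p = 0.409) that was not called. It was called higher with each array centred on its median (1.16, limma adjusted p = 0.338) and after quantile normalization (1.20, limma adjusted p = 0.264). The ending _x_at marks probes that may also match other transcripts. Without such probe sets the call of the CD82 gene was lost (1.06, limma adjusted p = 0.397), and it was lost too without CL46 (1.19, limma adjusted p = 0.581).

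TSPAN6, a tetraspanin tied to endosomal sorting, was the member that fell. Its gene values were -4.46, -1.19 and -0.67 on the ERG-induced arrays of CL4, CL9 and CL46, against 1.01, 1.08 and 0.41 on the non-induced arrays. Every ERG-induced array lay below every non-induced array, but the difference ranged widely between clones, at -5.47, -2.27 and -1.07. The fit gave -2.94 (SE 1.02, 95% interval -5.45 to -0.42, limma adjusted p = 0.332). Its first probe set fell by 3.04 (SE 0.70, limma adjusted p = 0.207), with -3.47, -2.04 and -0.87 in ERG-induced cells and 0.90, 1.30 and 0.54 in non-induced cells, and was not called without CL9 (-2.89, limma adjusted p = 0.525). Its second had -5.44, -0.34 and -0.46 in ERG-induced cells and 1.12, 0.86 and 0.27 in non-induced cells, a difference of -2.83 (SE 1.46, limma adjusted p = 0.489). The fall was largest in CL4: the gene difference was -1.67 without CL4, and that of the second probe set was -0.97. The TSPAN6 call was lost without CL9 (-3.27, limma adjusted p = 0.594) and without moderation of the variances (-2.94, adjusted p = 0.418).

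UPK1B and UPK1A, the uroplakin tetraspanins, build the plaques of the urothelium together with UPK2, UPK3A and UPK3B. Of the probe sets of UPK1B, the first rose 7.53-fold. It had 0.57, 1.56 and 1.52 on the ERG-induced arrays of CL4, CL9 and CL46, against -0.98, -3.15 and -0.95 on the non-induced arrays. The groups were well apart, with a difference of 2.91 (SE 0.71, limma adjusted p = 0.222) between them. It stayed past the thresholds when any 1 clone was left out (2.01 to 3.59). The second probe set of the same gene had -3.77, -2.07 and 1.29 in ERG-induced cells and 0.93, -1.95 and 0.80 in non-induced cells, and its groups overlapped (difference -1.44, SE 1.504, limma adjusted p = 0.738). The probe sets of UPK1B thus disagreed, and its gene value, 0.74 (SE 1.02, limma adjusted p = 0.820), passed no threshold. UPK1A stood at -0.47 in CL4, 2.40 in CL9 and -2.83 in CL46, with no common direction (-0.30, SE 1.25).

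Of the uroplakins that are not tetraspanins, UPK2, the partner of UPK1A in the plaque, rose 10.3-fold in ERG-induced cells. Its 1 probe set had 2.08, 0.67 and 0.67 on the ERG-induced arrays of CL4, CL9 and CL46, against -1.28, -3.20 and -2.17 on the non-induced arrays. The difference, 3.36 (SE 0.64, limma adjusted p = 0.192), was of like size in the clones, at 3.37, 3.88 and 2.84. UPK3A and UPK3B, the partners of UPK1B, differed by 0.22 (SE 0.37) and -0.33 (SE 1.05) and were not called.

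**Figure D2:**
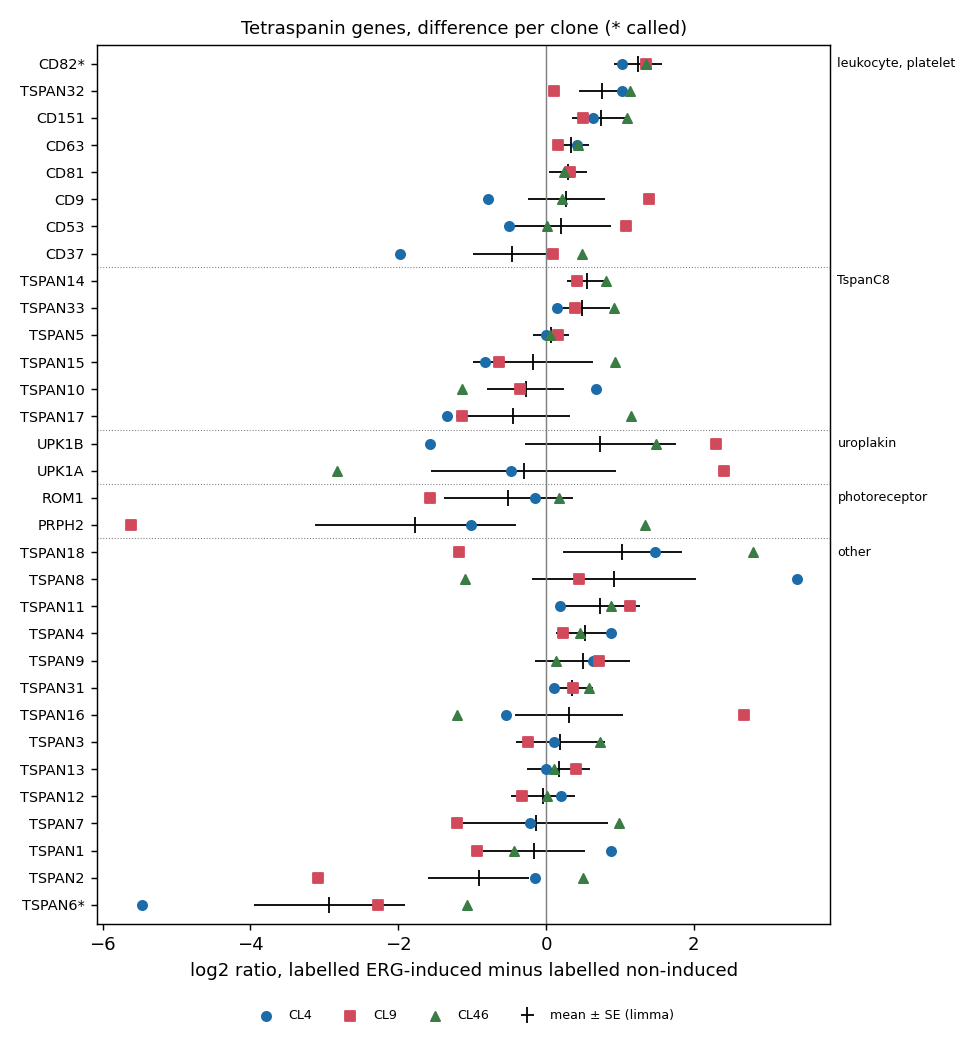
Difference in log2 ratio, ERG-induced minus non-induced (horizontal axis), of each of the 32 tetraspanin genes, grouped by role, with a point for each clone and the mean with its standard error from limma; an asterisk marks a call. CD82 lies at 1.03 to 1.36 in every clone and TSPAN6 at -5.47 to -1.07, while points of 20 genes fall on both sides of 0.

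Direction was more uneven than the calls. Of the 32 genes, 11 were above 0 in all 3 clones, or 34.4%, against 17.8% of all genes, and 1 was below 0 in all 3 clones, or 3.12%, against 22.4% of all genes. The 11 were CD151, CD63, CD81, CD82, TSPAN4, TSPAN9, TSPAN11, TSPAN14, TSPAN31, TSPAN32 and TSPAN33, and the 1 was TSPAN6. The other 20 had clones on both sides, and 37.5% of members kept 1 direction, against 40.2% of all genes. After each array was centred on its median, or after quantile normalization, 13 members (40.6%) were above 0 in all clones, with TSPAN5 and TSPAN13 added, and TSPAN6 stayed the only one below. Of all genes, 22.5% were then above and 18.9% below with centring, and 23.7% above and 17.9% below with quantile normalization. Groups that did not overlap were seen in 5 members, CD63, CD82, TSPAN14 and TSPAN32 higher and TSPAN6 lower, against 21.6% of all genes. These shares describe the family, whose genes are no replicates of one another.

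**Figure D3:**
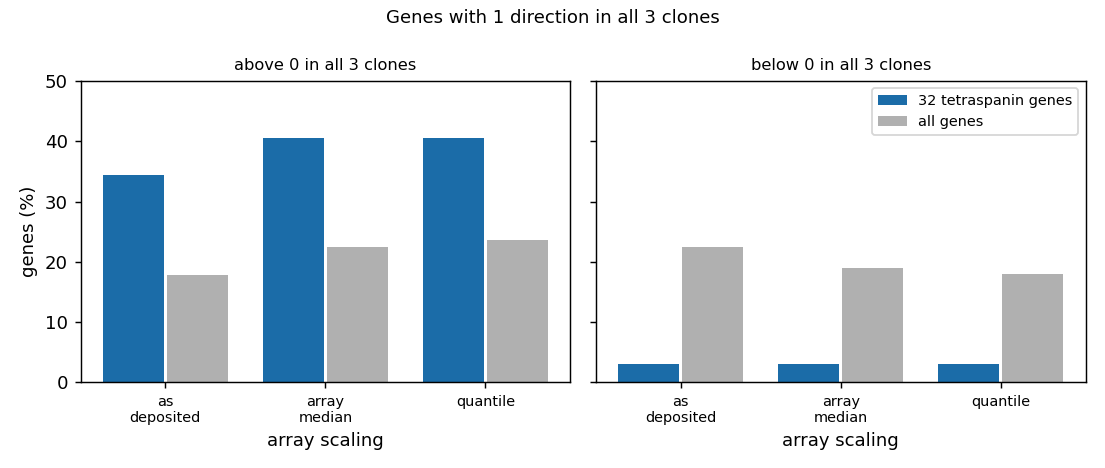
Share of genes (%) whose difference was above 0 (left) or below 0 (right) in all 3 clones, for the 32 tetraspanin genes (blue bars) and all 19775 genes (grey bars), under 3 array scalings. The tetraspanin bar is the higher one on the left (34.4% to 40.6%) and the lower one on the right (3.12%) under each scaling.

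The leukocyte and platelet tetraspanins numbered 8, of which CD82 rose and none fell, with a median difference of 0.32. That single call is 12.5%, near the 9.44% of all genes called (3.12% higher and 6.32% lower). CD63, the granule and late endosome tetraspanin, had 0.0084, 0.15 and 0.23 on the ERG-induced arrays of CL4, CL9 and CL46, against -0.41, -0.0084 and -0.20 on the non-induced arrays. Its groups lay close together but apart, with a difference of 0.34 (SE 0.24, limma adjusted p = 0.621). TSPAN32, known in mice for a role in platelets and T cells, had 0.36, 0.11 and 0.29 in ERG-induced cells and -0.67, -0.0020 and -0.84 in non-induced cells. It differed by 0.76 (SE 0.31, limma adjusted p = 0.389) and passed the thresholds only without CL9 (1.08), the clone in which it differed by 0.11. Its probe sets, at 0.47 and 1.04, each had a clone below 0. CD151, the partner of laminin-binding integrins, was higher by 0.64, 0.50 and 1.09 in the clones (0.74, SE 0.39, limma adjusted p = 0.487). CD81, a widely expressed tetraspanin of extracellular vesicles, differed by 0.33, 0.32 and 0.25 (0.30, SE 0.26, limma adjusted p = 0.688), the closest match of the clones among these genes.

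The remaining 3 of this group had no common direction. CD9, which organises adhesion and cell fusion, was at -0.79 in CL4, 1.40 in CL9 and 0.21 in CL46. CD53, a leukocyte tetraspanin, differed by -0.50, 1.09 and 0.012. CD37, found mainly on B cells, differed by -1.98, 0.10 and 0.49. In CD9, 1 probe set ran from -2.59 in CL4 to 2.87 in CL9, another also stood at 1.92 in CL9, and the last stood at -0.60 there. In CD37, 1 probe set stood at -3.87 in CL4 against 0.30 and 0.29 in CL9 and CL46. In CD53, 1 probe set stood at 4.15 in CL9, another was above 0 in every clone and another below 0 in every clone.

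Among the 6 TspanC8 members none was called, against 9.44% of all genes, and their median difference was -0.06. TSPAN14 had 0.040, 0.26 and 0.63 on the ERG-induced arrays of CL4, CL9 and CL46, against -0.38, -0.16 and -0.19 on the non-induced arrays. Its groups did not overlap, and its differences of 0.42, 0.42 and 0.82 gave 0.55 (SE 0.26, limma adjusted p = 0.452). TSPAN33, which takes part in red cell formation in mice, was above 0 in each clone too, by 0.15, 0.39 and 0.92 (0.49, SE 0.38). TSPAN5 was the steadiest of the 6, at -0.0056, 0.16 and 0.053. TSPAN15 and TSPAN17 stood lower in CL4 and CL9 and higher in CL46, at -0.83, -0.64 and 0.93 and at -1.34, -1.14 and 1.15. TSPAN10 was higher in CL4 and lower in CL9 and CL46, at 0.67, -0.36 and -1.13, and its probe sets disagreed (-1.43 and 0.88). ADAM10, the sheddase that these 6 carry, was below 0 in every clone at -0.52, -1.26 and -1.09. Its values were -0.22, -1.19 and -0.48 in ERG-induced cells and 0.30, 0.074 and 0.61 in non-induced cells, which did not overlap. At -0.96 (SE 0.35, limma adjusted p = 0.344) it missed the fold of 2, and 1 of its 3 probe sets fell. The median of its probe sets (-1.014) and the removal of the _x_at probe sets (-1.20) took it past the thresholds.

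The photoreceptor tetraspanins PRPH2 and ROM1, which shape the discs of rods and cones, were not called and varied strongly. PRPH2 was at -1.02 in CL4, -5.62 in CL9 and 1.34 in CL46 (-1.77, SE 1.36), the widest swing of the family. ROM1 differed by -0.15, -1.57 and 0.18 (-0.51, SE 0.87). In both genes CL9 was the low clone, and without it their differences were 0.16 and 0.018.

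Of the other 14 tetraspanins TSPAN6 alone was called (7.14%, against 9.44% of all genes), and their median difference was 0.25. Those above 0 in each clone, besides the genes above, were TSPAN4, TSPAN9, TSPAN11 and TSPAN31. TSPAN4, found on migrasomes, differed by 0.87, 0.23 and 0.46 (0.52, SE 0.39). TSPAN9, a platelet tetraspanin, differed by 0.63, 0.72 and 0.14 (0.50, SE 0.64), though 1 of its probe sets stood at -0.32 in CL46. TSPAN11 differed by 0.18, 1.13 and 0.88 (0.73, SE 0.54) and passed the thresholds without CL4 (1.005). TSPAN31, whose gene lies beside CDK4, differed by 0.11, 0.36 and 0.58 (0.35, SE 0.28), and its probe sets were almost equal at 0.35 and 0.36.

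A further set was near 0 on average. TSPAN13 was at -0.0011, 0.41 and 0.10 in the clones, and TSPAN12, a co-receptor in Norrin and FZD4 signalling, by 0.20, -0.33 and 0.013. TSPAN7, known from neurons, differed by -0.21, -1.20 and 0.99, and TSPAN1, an epithelial tetraspanin, by 0.88, -0.94 and -0.43. TSPAN16 was higher in CL9 only, at -0.54, 2.68 and -1.20. None of these 5 kept 1 direction.

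TSPAN18, TSPAN8 and TSPAN2 had means near or beyond a change of 1 but with clones that opposed each other. TSPAN18, which regulates calcium entry in endothelial cells, differed by 1.47, -1.18 and 2.81 (1.03, SE 0.80) and passed the thresholds without CL9 (2.14). TSPAN8, a tetraspanin of digestive epithelia and carcinomas, differed by 3.39, 0.45 and -1.09 (0.92, SE 1.11). TSPAN2, abundant in oligodendrocytes, differed by -0.15, -3.08 and 0.50 (-0.91, SE 0.68). A clone difference of 2 or more in size was met in 8 members, PRPH2, TSPAN2, TSPAN6, TSPAN8, TSPAN16, TSPAN18, UPK1A and UPK1B, while 13 stayed under 1 in every clone. Such counts were not taken over all genes, so they mark no trait of the family.

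Probe sets of the same gene often disagreed. Of the 19 members with several probe sets, 11 had differences of both signs, a count that was not taken over all genes. The widest gap was in TSPAN3, a widely expressed tetraspanin, whose 5 probe sets ran from -1.79 to 2.93 and whose gene value was 0.19 (SE 0.61). The highest had 1.48, -2.22 and 2.28 on the ERG-induced arrays of CL4, CL9 and CL46, against -1.59, -3.57 and -2.08 on the non-induced arrays. It was higher in each clone, but the induced array of CL9 lay below the non-induced arrays of the other clones, and 2.93 (SE 1.30, limma adjusted p = 0.425) was not called. The median ratio of this probe set was below 1, so 0 is not its median. Without it the gene value was -0.49. The lowest had -1.014, -3.90 and 0.59 in ERG-induced cells and 1.49, -1.49 and 1.05 in non-induced cells (-1.79, SE 1.38, limma adjusted p = 0.646). With the clone as a replicate block, which compares the arrays within a clone, the highest was called higher (limma adjusted p = 0.360) and the lowest lower (limma adjusted p = 0.380), so that 5 probe sets of the family were called rather than 3. The other 3 probe sets of TSPAN3 lay between -0.19 and 0.044. TSPAN2 had probe sets at -3.05, -1.31 and 1.63, the last of them at 5.14, -4.23 and 3.97 in CL4, CL9 and CL46.

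The precision was low. The median SD over the arrays of a group was 0.62 for the members in ERG-induced cells and 0.72 in non-induced cells, against 0.53 and 0.46 for all genes. The 95% interval of 29 of the 32 members reached a 2-fold difference in at least 1 direction. For CD63, CD81 and TSPAN5 it stayed within 2-fold either way. A member without a call therefore may have changed by 2-fold or more.

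**Figure D4:**
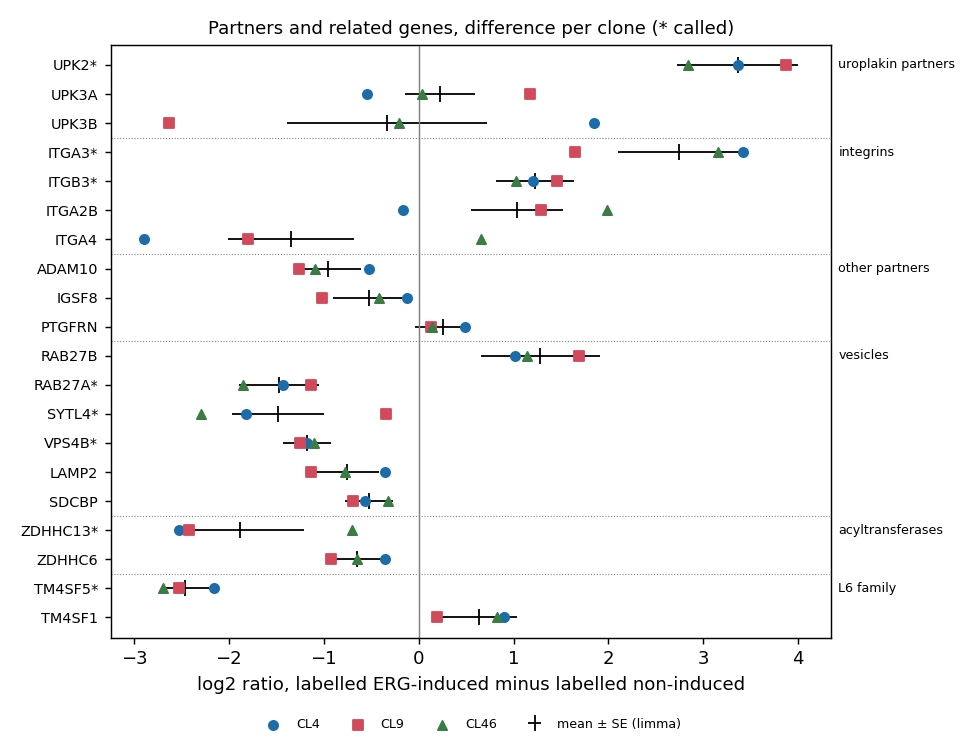
Difference in log2 ratio, ERG-induced minus non-induced (horizontal axis), of partners and related genes, with a point for each clone and the mean with its standard error from limma; an asterisk marks a call. UPK2, ITGA3 and ITGB3 lie right of 0 in every clone, and RAB27A, SYTL4, VPS4B, ZDHHC13 and TM4SF5 left of 0 in every clone.

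Among extracellular and membrane partners of tetraspanins, 29 of 30 listed genes were measured, of which 3 rose and none fell. That is 10.3% called, near the 9.44% of all genes, with a median difference of 0.07. Besides UPK2, the genes that rose were integrins. ITGA3, the laminin receptor subunit bound by CD151, rose 6.69-fold (2.74, SE 0.64, limma adjusted p = 0.227), by 3.42, 1.65 and 3.16 in the clones. ITGB3, a platelet integrin subunit, rose 2.34-fold (1.23, SE 0.41, limma adjusted p = 0.321), by 1.21, 1.45 and 1.02; leaving out CL9 (1.12) or CL46 (1.33), or taking the median of its probe sets (1.11), ended the call. Of the 7 probe sets of ITGB3, 2 rose. ITGA2B, which pairs with ITGB3 on platelets, was not called as a gene at 1.04 (SE 0.49), but 3 of its 4 probe sets rose, by 1.27 to 1.38 (limma adjusted p between 0.194 and 0.242). Each of these 3 was higher in every clone, and the fourth differed by 0.14 (SE 1.76). LRP5, a receptor of Norrin signalling, was at 1.21 (SE 0.58) and was not called. ITGA4, a leukocyte integrin subunit, was not called as a gene at -1.35 (SE 0.67), and its 4 probe sets disagreed: 2 fell, by 3.19 and 2.16 (limma adjusted p = 0.184 and 0.344), while 1 that was not called stood at 1.71 (SE 0.71).

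Of 20 listed genes of late endosomes and extracellular vesicles, 18 were measured, of which 3 fell and none rose. That is 16.7% called, against 9.44% of all genes (6.32% lower), with a median difference of 0.06. VPS4B, an ATPase that recycles the ESCRT machinery, fell 2.26-fold (-1.18, SE 0.25, limma adjusted p = 0.209), and its differences of -1.18, -1.25 and -1.11 were nearly equal between clones. It had -0.84, -0.79 and -0.44 in ERG-induced CL4, CL9 and CL46, against 0.34, 0.45 and 0.67 in non-induced cells. VPS4A, its paralog, was at 0.42 (SE 0.23) and not called. RAB27A, a GTPase that brings secretory granules and CD63-bearing endosomes to the plasma membrane, fell 2.77-fold (-1.47, SE 0.42, limma adjusted p = 0.274). Its values were -0.20, -0.98 and -0.55 in ERG-induced cells and 1.23, 0.16 and 1.30 in non-induced cells, and 5 of its 5 probe sets fell. Its gene call was lost without CL4 (-1.49) or CL46 (-1.28). RAB27B, the paralog of platelet granules, was higher in each clone (1.013, 1.69 and 1.14) but was not called at 1.28 (SE 0.62, limma adjusted p = 0.461), and 1 of its 3 probe sets rose (1.69, SE 0.61, limma adjusted p = 0.339). SYTL4, a RAB27 effector, fell 2.80-fold (-1.48, SE 0.49, limma adjusted p = 0.316) by 1.82, 0.34 and 2.29 in the clones. None of its 3 probe sets was called, and the gene call was lost without CL4 (-1.32), without CL46 (-1.08) and with the median of the probe sets (-0.95). LAMP2 and SDCBP were at -0.76 (SE 0.34) and -0.52 (SE 0.25).

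All 18 listed palmitoyltransferases, of the enzyme family that acylates tetraspanins, were measured, and 1 fell (5.56% called, median difference -0.25). ZDHHC13 fell 3.69-fold (-1.88, SE 0.68, limma adjusted p = 0.343), by 2.53, 2.42 and 0.70 in the clones, and leaving out CL4 (-1.56) or CL9 (-1.62), or the moderation of the variances, ended the call. ZDHHC6 missed the fold of 2 at -0.64 (SE 0.26). The L6 family and related small proteins of the membrane share the layout but not the signature residues of tetraspanins. Of these, 13 of 16 were measured and 1 fell (7.69% called, median difference 0.18). In this list and that of the palmitoyltransferases, the share called was below the 9.44% of all genes. TM4SF5 fell 5.49-fold (-2.46, SE 0.25, limma adjusted p = 0.121), with -1.45, -1.81 and -1.65 on the ERG-induced arrays of CL4, CL9 and CL46 against 0.71, 0.71 and 1.04 on the non-induced arrays. Clones were nearly equal here, and the call held with each alternative scaling, fit, probe-set summary and filter and without each clone (-2.61 to -2.15).

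Markers of cell types that express tetraspanins are given beside all genes, of which 9.44% were called (3.12% higher and 6.32% lower). Of the megakaryocyte and platelet markers, 3 of 13 rose (SELP, GP1BA and ITGB3) and none fell, with a median difference of 1.07. Of the endothelial markers, 3 of 8 rose (PECAM1, CDH5 and ESAM), with a median of 0.69. In the erythroid list TFRC fell (-1.67, SE 0.32, limma adjusted p = 0.192), 1 of 9, and the median was 0.23. Epithelial markers, which include no uroplakin, had 0 of 8 called and a median of 0.09, and monocyte markers 0 of 10 and 0.17. Of the lymphocyte markers CD3D fell, 1 of 8 (median -0.02), and of the fibroblast markers PDGFRA rose and COL1A1 fell, among 8 (median 0.41). The single calls of the erythroid (11.1%) and lymphocyte (12.5%) lists were near the share of all genes. In such bulk RNA a change in the share of cells of a kind cannot be told apart from a change in RNA per cell, and the part of these markers in the tetraspanin values was not tested.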

How the data were processed

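RNA of 3 K562 pTRE-ERG clones, grown with DOX (ERG-induced) or without it (non-induced), was hybridized to 6 Affymetrix U133 Plus 2.0 arrays. GeneSpring was used by the authors, who deposited 1 linear ratio for each probe set of each array. Over the 6 arrays, 50737 of the 54675 probe sets have a median of 1 (tolerance 1e-05) and 3938 a lower one. The sources used here do not state how arrays were scaled or background was corrected before that. Signal over background is unknown, and the number of arrays limits the precision.

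Control probe sets (62) were left out. Probe sets with 1 symbol (41091) were averaged on the log2 scale into 19775 genes, while those with several symbols (1801) or none (11721) entered only fits by probe set. All 32 member symbols matched RefSeq names of GRCh38.p14. Columns without a mapped sample: 0. ERG-induced and non-induced arrays were compared with limma 3.58.1 (lmFit, eBayes without trend, two-sided) in R 4.3.3 (data.table package, version 1.17.8), with Benjamini-Hochberg adjustment over the whole table. p-values of the main fit rest on the spread of arrays within a group, each from another clone, with variances moderated by limma. Clone and array noise cannot be told apart in that spread, and it is not the spread of the differences by clone. The scripts were tested on simulated data.

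Same-clone arrays are paired by the shared clone, and their deviations from the group means correlated by 0.036, 0.049 and 0.031 in CL4, CL9 and CL46. The members, the related lists and the rule for genes named in full (called, with a called probe set, or moved by 1 or more in 1 direction in all clones; up to 4 others by smallest p in each related list) were chosen with earlier results of these data known. Members given array by array outside that rule (CD63, TSPAN14, TSPAN32, TSPAN3) and ADAM10, VPS4B and RAB27A were chosen after their values were seen. Alternatives were the clone as a block, other scalings, no moderation, other summaries and filters of probe sets, a pseudocount of 0.1, other thresholds, and leaving out each clone.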

Additional observations from a re-analysis of the deposited data

How the results depend on the processing

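Leaving out 1 clone gave 1 to 3 called tetraspanin genes (2 with all clones), 4 to 6 probe sets (3 with all), 6 to 8 genes of the related lists (8 with all), and a median difference over the tetraspanins of 0.20 to 0.29. CD82 and TSPAN6 stayed called with each array centred, after quantile normalization, with the probe-set median, with log2(ratio + 0.1) and with the replicate block. Without moderation, without _x_at probe sets or at p under 0.01, 1 tetraspanin gene was called in each case. At p under 0.01, 749 of all genes and 4 of the related lists were called, and at an adjusted p under 0.05, 0 of all genes, tetraspanin genes, tetraspanin probe sets and related genes, although the lowest adjusted p of any gene was 0.0304 after quantile normalization and 0.0436 with log2(ratio + 0.1).

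With the clone as a replicate block, 1925 of all genes (661 higher, 1264 lower), 2 tetraspanin genes, 5 tetraspanin probe sets and 10 related genes were called, with a median tetraspanin difference of 0.24. The lowest adjusted p of any gene was then 0.350. Quantile normalization also gave 5 tetraspanin probe sets. Of all genes called, 67.0% were lower as deposited, 57.2% with each array centred and 52.1% after quantile normalization, and the median of all genes moved to 0.08 and 0.11 while that of the tetraspanins was 0.34 and 0.35.

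Over the 32 genes and 11 alternatives, 24 values changed sign, all of them uncalled. TSPAN12 was at 0.064 with centring and 0.15 with quantile normalization, which also turned TSPAN15 (0.040) and TSPAN7 (0.066). TSPAN3 was at -0.091 with the probe-set median and at -0.49 without probe sets of a median below 1. Leaving out 1 clone gave CD37 -0.94 to 0.29, CD53 -0.24 to 0.55, CD9 -0.29 to 0.81, PRPH2 -3.32 to 0.16, ROM1 -0.86 to 0.018, TSPAN1 -0.68 to 0.22, TSPAN2 -1.62 to 0.17, TSPAN3 -0.074 to 0.42, TSPAN7 -0.71 to 0.39, TSPAN8 -0.32 to 1.92, TSPAN10 -0.75 to 0.16, TSPAN12 -0.16 to 0.11, TSPAN15 -0.73 to 0.15, TSPAN16 -0.87 to 1.07, TSPAN17 -1.24 to 0.0034, UPK1A -1.65 to 0.96 and UPK1B -0.047 to 1.89. The cause of these changes was not tested. Signal over background is not known for these arrays.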
